A study of Mus musculus with 9 samples.

Results

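Macrophages stimulated with lipopolysaccharide (LPS) in the presence of NCT503 were compared with untreated macrophages, so that the difference between the groups holds the response to LPS and the response to NCT503 together. The comparison asks what of macrophage activation remains when the inhibitor is present, and what differs from untreated cells beyond it. Its members are 6 of the 9 RNA-seq libraries of the study, 3 of untreated cells and 3 of the combined treatment, taken by their labels. The other 3 libraries, from cells given LPS alone, are set beside them.

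All libraries came from bone-marrow-derived macrophages of C57BL/6 mice at postnatal week 8, grown for 6 days with macrophage colony-stimulating factor (M-CSF, 10 ng/ml). Control cells then spent 6 h in plain medium, LPS cells 6 h with 500 ng/ml LPS, and combined-treatment cells 6 h with 500 ng/ml LPS and 50 µM NCT503. No group received NCT503 without LPS, and nothing used here says whether the other groups received a vehicle. Whether replicates were separate cultures or animals is not labelled, and p-values therefore reflect only the spread between these libraries, which may be technical. Whole reads of 21434 genes were shared by all 9 libraries, 20295862 to 23599685 reads per library.

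LPS is the outer membrane lipid of Gram-negative bacteria. Toll-like receptor 4 with CD14 senses it and signals through MyD88 and TRIF to NF-κB, MAP kinases and interferon regulatory factors, which induce cytokines, chemokines, interferon beta and their feedback inhibitors. NCT503 inhibits phosphoglycerate dehydrogenase (PHGDH), which starts serine synthesis from the glycolytic intermediate 3-phosphoglycerate. Serine feeds one-carbon metabolism, glycine and glutathione, and shortage of amino acids is known to raise translation of the transcription factor ATF4, which induces amino acid transporters, synthetic enzymes and tRNA synthetases.

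Relative to untreated cells, 4134 of 19930 genes tested rose (20.7%) and 3927 fell (19.7%), so 40.4% changed in either direction. In 50.2% of the genes tested, no library of one group overlapped the other group. Differences are log2 fold changes of normalized reads plus 1, given with their standard error (SE), and a gene is said to rise or fall when its Benjamini-Hochberg adjusted p in limma was under 0.05. The median difference over all genes tested was 0.0458. Scaling by library totals alone (CPM) shifted the median of all genes by -0.446 and changed the split to 2452 higher and 6574 lower. Beside these, LPS alone against the same control libraries gave 20.8% of genes higher and 21.6% lower, 42.4% in all, with no overlap between groups in 51.1%. Because both comparisons share the control libraries, the difference between the treated states was read from the combined treatment against LPS alone, in which 16.4% of 20016 genes were higher and 15.5% lower (9.43% lower by at least 2-fold), and groups did not overlap in 43.9%.

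The libraries of a group differed in known ways. Control replicate 1 held at least 4 times the level of the other 2 controls in 174 genes, and LPS with NCT503 replicate 2 lay at least 4-fold above its group in 61 genes and 4-fold below it in 102. Across genes with a mean of at least 10 reads, the Spearman correlation of a library's deviation from its group with gene length ran from -0.372 to 0.364 over the 9 libraries (13141 to 13569 genes, which share libraries and are not independent). Macrophage markers were present throughout. Csf1r, the M-CSF receptor, held 34537, 34516 and 38497 normalized reads in control and 35109, 45389 and 34735 in the combined treatment. The sum over 29 macrophage identity genes was lower in the combined treatment, at 334000 to 399000 normalized reads. It was 434000 to 542000 in control and 576000 to 769000 in LPS.

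Stretches upstream of the start of 9 genes are printed here because each holds the letters of an element known for the gene group it belongs to. The sequences are RefSeq's, of the mouse build GRCm38.p6, written 5′ to 3′ on the gene's strand, with the searched letters in capitals on whichever strand they were found. Windows of 300 bases, from 250 before to 50 after a start, were searched on both strands. A match is a description of these letters, not a binding site.
Asns, chr6:7693214-7693243, minus strand: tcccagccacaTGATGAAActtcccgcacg
Slc7a11, chr3:50443623-50443709, minus strand: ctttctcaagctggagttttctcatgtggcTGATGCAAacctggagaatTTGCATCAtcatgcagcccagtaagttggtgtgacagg
Cxcl1, chr5:90891144-90891213, plus strand: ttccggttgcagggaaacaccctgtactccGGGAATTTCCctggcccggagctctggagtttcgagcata
Cxcl2, chr5:90903772-90903841, plus strand: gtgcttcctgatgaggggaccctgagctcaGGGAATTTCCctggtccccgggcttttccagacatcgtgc
Cxcl3, chr5:90785998-90786067, plus strand: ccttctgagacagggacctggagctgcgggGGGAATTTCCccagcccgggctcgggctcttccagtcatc
Il6, chr5:30013040-30013109, plus strand: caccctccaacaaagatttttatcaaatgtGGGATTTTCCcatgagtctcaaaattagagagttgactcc
Isg15, chr4:156200845-156200926, minus strand: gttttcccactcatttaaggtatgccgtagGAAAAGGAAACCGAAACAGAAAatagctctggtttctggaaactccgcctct
Cxcl10, chr5:92349063-92349132, minus strand: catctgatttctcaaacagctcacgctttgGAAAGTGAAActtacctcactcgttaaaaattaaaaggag
Mcm6, chr1:128359715-128359845, minus strand: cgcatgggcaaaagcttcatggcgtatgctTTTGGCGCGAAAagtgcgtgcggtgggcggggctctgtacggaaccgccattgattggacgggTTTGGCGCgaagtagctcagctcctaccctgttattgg

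In Asns and Slc7a11 the capitals mark TGATGNAA, letters of the C/EBP-ATF response element that ATF4 is known to bind. These letters stood in 32.3% of 31 windows of the ATF4 target list and 41.7% of 12 windows of the tRNA synthetase list, against 2.45% of 15353 windows of all genes tested. In the chemokine genes and Il6 they mark an NF-κB element (GGGA, any base, TTTCC). It was in 30% of 10 chemokine windows, 11.8% of 17 cytokine windows, 11.5% of 26 NF-κB list windows and 0.462% of all windows. The chemokine share is 3 windows, which include the printed stretches of Cxcl1 and Cxcl2. Isg15 and Cxcl10 carry an interferon-stimulated response element (GAAA, any 2 bases, GAAA), found in 51.5% of 33 windows of interferon targets and in 3.30% of all; the 3 matches in Isg15 overlap each other. In Mcm6 the letters are TTTNNCGC, an E2F element, found in 43.8% of 32 windows of DNA replication genes against 7.48% of all, and the upstream pair of its 3 matches overlaps. A short stretch is shown for Asns because an annotated exon of the gene lies there. Among genes at least 2-fold higher than control, shares were 3.75% (C/EBP-ATF), 0.659% (NF-κB) and 4.24% (interferon). Among genes at least 2-fold lower, the E2F share was 8.13%. Other elements searched stood in 5.0% of 20 cholesterol synthesis windows (sterol, 1 window, 1.19% of all) and 31.6% of 19 zinc-gene windows (metal, 24.4%). Others stood in 27.3% of 33 NRF2 windows (antioxidant, 14.3%) and 27.8% of 36 lysosome windows (TFE-type E-box, 5.47%). The sterol, metal and antioxidant letters were not particular to these lists. They stood respectively in 10.0% of 10 class II windows, 40.9% of 22 heat shock windows and 29.0% of 31 ATF4 target windows.

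The inflammatory cytokines stayed far above the untreated level with the inhibitor present. Of 21 cytokine genes tested 20 rose and none fell, with a median log2 difference of 5.45, beside 5.5 for LPS alone against the same controls. The member that did not pass was Il18 (0.75, limma adjusted p = 0.0682). Members named as exceptions in any list were named after their values were seen. Directly against LPS alone, 5 cytokines were higher and 10 lower in the combined treatment.
Il6, a cytokine of fever and the acute phase (chromosome 5), was nearly silent in untreated cells, with 0.683, 2.80 and 1.60 normalized reads, and held 994, 610 and 1123 in the combined treatment against 1843, 1789 and 1595 in LPS. It rose by 8.43 ± 0.36 (limma adjusted p = 7.01e-08), and was lower than with LPS alone by a log2 difference of -0.98 ± 0.22 (limma adjusted p = 0.0056). Tnf, the first cytokine of the response, held 56793, 39223 and 48094 reads against 113, 162 and 141 in control. It rose by 8.42 ± 0.19 (limma adjusted p = 3.3e-09), and its LPS libraries, at 29554, 41448 and 32943, overlapped the combined treatment. Il1b, the pyrogenic cytokine that needs caspase-1 for release (chr2:129364570-129371139), held 3249, 3340 and 3486 reads against 21.2, 14.7 and 11.2 in control. That is a rise of 7.70 ± 0.22 (limma adjusted p = 9.22e-09), while the LPS libraries lay at 47003, 41287 and 50112, and the direct difference was -3.78 ± 0.16. All Il1b libraries of the combined treatment therefore lay between the untreated and the LPS range.
Il12b, the shared subunit of interleukins 12 and 23, had 5926, 2215 and 5742 reads against 13.0, 7 and 3.21 in control and rose by 9.09 ± 0.51 (limma adjusted p = 4.89e-06). It was also above LPS alone, by 1.22 ± 0.36, although replicate 2 lay within the LPS range of 1462 to 2660. Il1a and Il27 rose by 5.45 ± 0.17 and 5.60 ± 0.22 and were 2.09 and 2.15 lower on the log2 scale than with LPS alone. Il10, the main cytokine that restrains macrophages, held 624, 272 and 457 reads against 85.4, 100 and 96.2 in control (2.17 ± 0.28) and 1036 to 1310 in LPS. Csf3, a growth factor of neutrophils, had 2 reads over the 3 control libraries and 1464 over the combined treatment, a ratio of 1060 with an exact 95% counting interval of 292 to 8740. Inhba, the activin A subunit, which was named after its values were seen, held 288 reads in control replicate 1 against 46.2 and 46.5 in the other controls, and 12347, 7310 and 11230 with both agents.

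**Figure D1:**
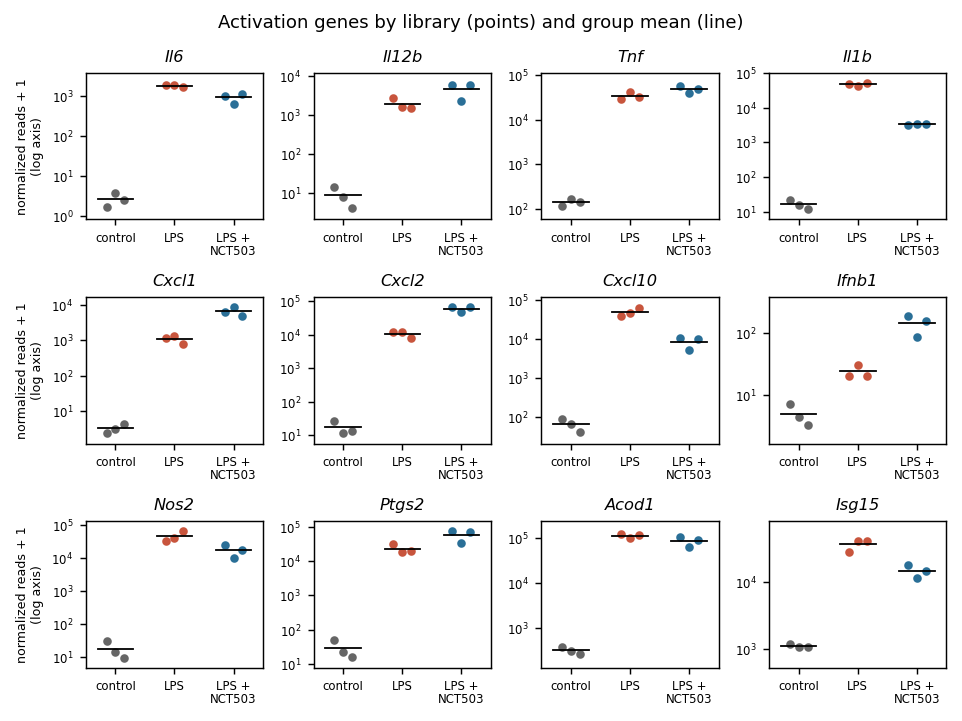
Normalized reads plus 1 (log axis) of 12 activation genes in the 3 control, 3 LPS and 3 LPS with NCT503 libraries; points are libraries and lines group means. All 12 genes lay above control in both treated groups. Among them, every combined-treatment library lay below every LPS library for Il6, Il1b, Cxcl10 and Isg15. The reverse held for Cxcl1, Cxcl2, Ifnb1 and Ptgs2.

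Most chemokines rose, but to less than the LPS level. Of 18 tested, 15 rose and none fell (median 3.03, beside 5.30 for LPS alone). Those that did not pass were Ccl9 (0.73), Ccl17 (0.56) and Ccl24 (-1.19). Against LPS alone, 11 were lower and 2 higher, and the higher pair were the neutrophil attractants Cxcl1 and Cxcl2, whose upstream stretches are printed above.
Cxcl2 showed the largest rise of any gene named by size, with 65803, 46800 and 67110 reads against 26.6, 10.5 and 12.8 in control (11.82 ± 0.30, limma adjusted p = 1.5e-08). Its LPS libraries held 12029, 11853 and 7827, so the 3 groups did not overlap. Cxcl1 held 6377, 8698 and 4874 reads against 1.37, 2.10 and 3.21 in control (11.01 ± 0.28) and 808 to 1294 in LPS. Cxcl3, their neighbour on chromosome 5 with the same NF-κB letters, rose by 8.24 ± 0.47 and differed from LPS alone by 0.50 ± 0.21 (limma adjusted p = 0.089). Cxcl10, which attracts T cells through CXCR3, held 10490, 5126 and 10344 reads against 84.7, 62.3 and 39.3 in control (7.09 ± 0.34, limma adjusted p = 5.13e-07). It reached 38630 to 61895 in LPS, so the combined treatment was lower by a log2 difference of -2.56 ± 0.27. Ccl2, the monocyte attractant, rose by 2.88 ± 0.17 with both agents, to 2085, 1818 and 1947 reads, and by 5.45 ± 0.20 with LPS alone. Cxcl10 exons overlap those of Art3, and the strand setting of the counting is unknown.

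Interferon targets rose less than the cytokines but nearly all of them rose. Of 35 genes tested, 32 were higher than control and none lower (median 1.97, beside 3.02 for LPS alone). Ddx58 (1.03, limma adjusted p = 0.0563), Oas2 (0.73) and Bst2 (0.42) did not pass. Under library-total scaling 24 rose, and under quantile normalization 25 rose and 1 fell. Ifnb1 itself, the interferon that macrophages make first, held 186, 83.2 and 150 reads against 6.15, 3.50 and 2.40 in control and 19.6, 30 and 19.7 in LPS. It rose by 4.80 ± 0.41 (limma adjusted p = 7.9e-06) and was above LPS alone by 2.5 ± 0.34. It was the only member of the list called higher than with LPS alone, where 22 were called lower. Isg15, a ubiquitin-like modifier of antiviral defence, held 17552, 11163 and 14439 reads against 1157, 1050 and 1057 in control (3.70 ± 0.18) and 27229 to 40216 in LPS. Irf1, an interferon regulatory factor, rose by 3.24 ± 0.23 and Oasl1, a restraint on Irf7 translation, by 4.07 ± 0.18. Oasl1 did not differ detectably from LPS alone (-0.16 ± 0.23, limma adjusted p = 0.633). Replicate 2 was the lowest combined-treatment library for Ifnb1, Isg15, Irf1, Cxcl10 and Oasl1.

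NF-κB subunits and feedback genes rose in 24 of 25 cases and fell in none (median 2.86, beside 4.02 for LPS alone); the exception was Il4ra (0.27). Nfkbia, the inhibitor that holds NF-κB in the cytoplasm, held 18548, 15348 and 18211 reads against 621, 557 and 620 in control (4.85 ± 0.14, limma adjusted p = 1.01e-08). Traf1, an adaptor of TNF receptors, rose by 5.23 ± 0.15 and Zc3h12a, an RNase that degrades cytokine transcripts, by 3.75 ± 0.15. Socs3, which blocks signalling from the interleukin-6 receptor, held 12012, 7385 and 9515 reads against 172, 95.2 and 112 in control and 47606, 69333 and 65041 in LPS. Against LPS alone 17 members of this list were lower and none higher, counts that compare with 15.5% and 16.4% over all genes.

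The receptors and adaptors that sense LPS moved both ways. Of 26 tested, 12 rose and 8 fell (median 0.50). Under library-total scaling 10 rose and 9 fell (median 0.04). Tlr4 fell, with 879, 478 and 752 reads against 1302, 1201 and 1145 in control (-0.83 ± 0.22, limma adjusted p = 0.0109). Its coreceptor Cd14 rose by 2 ± 0.23, to 13156, 22954 and 13519 reads from 3244, 4200 and 4658, while LPS libraries held 75244 to 90464. Traf3, an adaptor on the way to interferon, rose by 3.02 ± 0.15, and Ticam1, the gene of TRIF, by 2.05 ± 0.16. Both exceeded LPS alone, by 1.39 and 0.82. Tlr2 and Tlr6, partners in sensing bacterial lipopeptides, rose by 1.81 ± 0.15 and 2.07 ± 0.18.

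Effector genes were higher than control in 18 of 23 cases (median 1.59, beside 2.84 for LPS alone), and Lyz2, the macrophage lysozyme, was the member that fell (-0.96 ± 0.19). Ptgs2, the inducible cyclooxygenase, held 77677, 33756 and 72885 reads against 49.2, 21 and 14.4 in control (11.13 ± 0.49, limma adjusted p = 3.46e-06). Its LPS libraries held 18897 to 32731 and the direct difference was 1.32 ± 0.31. Ptges, the prostaglandin E synthase that uses its product, rose by 8.64 ± 0.18 and was below LPS alone by a difference of -0.73 ± 0.20. Nos2, the inducible nitric oxide synthase, held 24778, 10411 and 18027 reads against 29.4, 13.3 and 8.81 in control (10.01 ± 0.45, limma adjusted p = 1.79e-06). Acod1, which makes itaconate, held 108443, 63700 and 92294 reads against 384, 310 and 264 in control and 101579 to 122826 in LPS. Slpi, an inhibitor of leukocyte proteases, rose by 5.23 ± 0.17 and was above LPS alone by 1.64 ± 0.21. Arg1, arginase, was at 2.04, 1.04 and 3.25 reads against 5.47, 3.50 and 0.801 in control and was not called.

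Genes of class I antigen presentation rose in 9 of 18 cases and fell in none (median 0.40, against 1.67 for LPS alone). The sign of that median was lost with scaling by library totals (-0.05; 6 rose and 2 fell) and with quantile normalization (4 rose and 3 fell). Psme2, a proteasome activator subunit, rose by 1.66 ± 0.17 and Tapbp, tapasin, by 0.83 ± 0.15. H2-Q7 (2.08 ± 0.16) and H2-Q4 (1.18 ± 0.20) belong to a family of near-identical genes, so their reads could be split by the counting. Class II and costimulatory genes rose in 12 of 16 cases (median 1.07), 7 under library-total scaling or quantile normalization, and H2-DMa fell (-0.62). Cd40, the receptor for help from T cells, held 12873, 9185 and 11773 reads against 242, 299 and 337 in control (5.26 ± 0.18). Cd274, the checkpoint ligand PD-L1, rose by 3.88 ± 0.25, and its direct difference from LPS alone was 0.14 ± 0.26. Icam1, the ligand of leukocyte integrins, rose by 3.74 ± 0.15.

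Inflammasome genes rose in 7 of 14 cases and fell in 3, namely Nlrp1b (-2.44), Pycard (-1.78) and Card9 (-0.98). Under library-total scaling 5 rose and 5 fell, and without control replicate 2 the number that rose was 5. Nlrp3, the sensor that LPS primes, held 20271, 12822 and 18281 reads against 519, 470 and 462 in control (5.12 ± 0.18) and 17771 to 20863 in LPS. Casp4, the gene of the cytosolic LPS receptor caspase-11, rose by 3.35 ± 0.20. Pycard, the adaptor ASC, held 180, 154 and 171 reads against 498, 596 and 657 in control and 449 to 614 in LPS. Sensor and adaptor therefore differed in opposite directions from untreated cells.

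**Figure D2:**
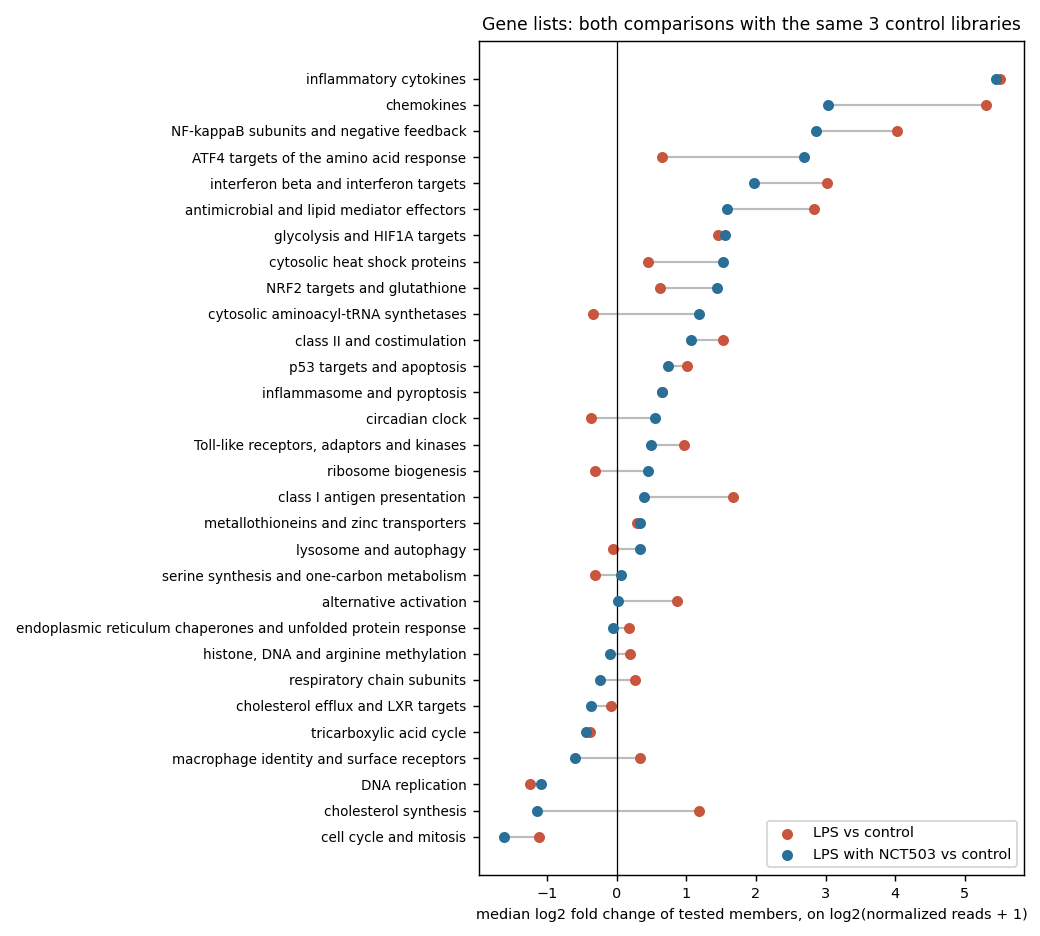
Median log2 fold change of the tested members of 30 gene lists, for LPS with NCT503 against control (blue) and LPS against the same control libraries (red); the grey line joins the values of a list. Cytokines lay at 5.45 and 5.5, ATF4 targets at 2.69 and 0.65, and cholesterol synthesis genes at -1.15 and 1.18.

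Genes of the amino acid response rose, and did so beyond their level with LPS alone. Of 31 ATF4 targets tested, 29 rose and none fell (median 2.69, beside 0.65 for LPS alone), and 26 were higher than in LPS alone and none lower. Slc7a3 (1.24, limma adjusted p = 0.052) and Slc1a5 (-0.12) did not pass.
Gdf15, a stress cytokine (ENSMUSG00000038508), held 169414, 139128 and 160686 reads against 1499, 2121 and 2477 in control. It rose by 6.29 ± 0.19 (limma adjusted p = 1.23e-08), and LPS alone held 5064, 9966 and 5009. Slc7a11, the cystine carrier, held 32029, 16742 and 31173 reads against 269, 229 and 186 in control (6.82 ± 0.25) and 3726 to 6311 in LPS. The gene thus had 2 steps, one seen with LPS and one beyond it. Asns, asparagine synthetase, held 4257, 3955 and 4439 reads against 346, 375 and 415 in control and 506, 569 and 637 in LPS (3.48 ± 0.15, limma adjusted p = 6.18e-08). Slc7a1, a carrier of cationic amino acids, rose by 3.70 ± 0.14 and Ppp1r15a, which restores translation by dephosphorylating eIF2α, by 4.56 ± 0.17.
Trib3, a pseudokinase that restrains the response, held 2366, 3188 and 2586 reads, against 164, 232 and 254 in control and 198, 297 and 328 in LPS. Atf4 itself held 12395, 11608 and 13818 reads against 1692, 1934 and 2235 in control (2.69 ± 0.16) and 4331 to 5152 in LPS. Ddit3, the gene of CHOP, rose by 1.74 ± 0.19, with an LPS level (1464 to 1614) within the control range of 1225 to 1784. Ddit3 exons overlap those of Mars, another gene of the tRNA synthetase list.

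Cytosolic tRNA synthetases rose in 14 of 20 cases and fell in none (median 1.19, beside -0.34 for LPS alone); with scaling by library totals 12 rose and 6 fell. Aars, for alanine, held 15107, 16754 and 14521 reads against 3476, 3953 and 3985 in control (2.02 ± 0.14, limma adjusted p = 2.04e-06). Cars rose by 2.26 ± 0.14, Yars by 1.5 ± 0.14 and Mars by 1.42 ± 0.14, for cysteine, tyrosine and methionine. Against LPS alone 14 members were higher, and the lower pair were Farsa (-1.27) and Wars (-1.20), the tryptophan enzyme known as an interferon target.

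The serine pathway itself was mixed. Of 31 serine and one-carbon genes tested, 13 rose and 6 fell (12 and 13 under library-total scaling), and the median of 0.07 turned negative with TMM scaling (-0.01), library totals (-0.38), quantile normalization (-0.17) or without control replicate 1. Phgdh, the gene of the inhibited enzyme, held 609, 846 and 701 reads against 202, 183 and 234 in control (1.79 ± 0.18, limma adjusted p = 2.93e-05) and 311, 417 and 595 in LPS. Psat1, the next enzyme, rose by 1.28 ± 0.18, and its direct difference from LPS alone was 0.24 ± 0.19. Psph, the last step to serine, held 78.5, 206 and 128 reads against 119, 102 and 124 in control and was not called (0.15 ± 0.31). Mitochondrial enzymes of the one-carbon pathway that serine feeds also rose, Mthfd2 by 2.68 ± 0.14, Mthfd1l by 1.51 ± 0.17 and Shmt2 by 1.45 ± 0.16. Shmt2 and Mthfd2 were above LPS alone by 1.70 and 1.89. An RNA level says nothing of the activity of an inhibited enzyme.

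Cytosolic heat shock genes rose in 14 of 20 cases and fell in none (median 1.53, beside 0.45 for LPS alone). Hspa1a held 7593, 11746 and 13391 reads against 40.3, 65.1 and 68.1 in control (7.53 ± 0.25) and 1238 to 1905 in LPS, and its near-identical neighbour Hspa1b rose by 7.36 ± 0.25, a pair between which reads could be split. Hsp90aa1, an inducible chaperone, rose by 2.32 ± 0.18. Of 26 genes of the endoplasmic reticulum 6 rose, a share near the 20.7% over all genes, and 3 fell. Under library-total scaling 3 rose and 14 fell, and under quantile normalization 4 and 10; without control replicate 2, 3 rose, and without combined-treatment replicate 2, 7 fell. Ern1, the sensor IRE1α, rose by 2.26 ± 0.14 with LPS alone at -0.30 ± 0.14, and Hspa5, the chaperone BiP, rose by 1.11 ± 0.16 with LPS alone at 1.05 ± 0.17. Pdia4, a disulfide isomerase, fell by 1.06.

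Antioxidant genes of the NRF2 list rose in 21 of 30 cases and fell in 2, Gpx1 (-1.26) and Ggt5 (-0.93); 7 fell under library-total scaling. Srxn1, which repairs peroxiredoxins, held 35565, 39987 and 31478 reads against 2177, 2782 and 3196 in control (3.72 ± 0.18) and 7778 to 8917 in LPS. Txnrd1, thioredoxin reductase, rose by 3.29 ± 0.15 and Sqstm1, the autophagy receptor p62, by 3.41 ± 0.19.
Mt2, a zinc-binding metallothionein, held 1908, 3125 and 2519 reads against 30.1, 45.5 and 70.5 in control and 50.7, 50.5 and 86.5 in LPS (5.72 ± 0.29). Mt1 held 32232, 39272 and 36928 against 1816, 2433 and 3142 in control (3.91 ± 0.20). Slc30a1, the zinc exporter of the plasma membrane, rose by 3.28 ± 0.18, with LPS alone at -0.16 ± 0.16. Over the whole list of zinc genes 9 of 19 rose and 3 fell (4 and 6 under library-total scaling), with a median of 0.34 that changed sign under library-total scaling (-0.11). The members that fell were the transporters Slc30a5, Slc39a8 and Slc39a10 (-0.79, -0.89 and -3.32).

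Glycolysis and HIF1A targets rose in 23 of 30 cases in the combined treatment (median 1.55, beside 1.46 for LPS alone). Hk2, the inducible hexokinase, held 14397, 14201 and 15395 reads against 1031, 1077 and 1135 in control (3.76 ± 0.13) and 4408 to 5886 in LPS. Slc2a1, the glucose carrier GLUT1, rose by 3.70 ± 0.17, and its direct difference from LPS alone was -0.22 ± 0.18. Vegfa, an angiogenic factor, held 9824, 10513 and 11184 reads against 1230, 671 and 704 in control and 1208 to 2048 in LPS. Egln3, an oxygen-sensing hydroxylase that HIF1A induces, rose by 3.79 ± 0.20. The genes that fell were Pfkfb4 (-2.20) and Aldoc (-1.51).
Among 24 genes of the tricarboxylic acid (TCA) cycle, 13 were lower than control and 5 higher (median -0.44). Idh1 held 579, 487 and 571 reads against 3301, 2829 and 3164 in control and 425 to 531 in LPS (-2.50 ± 0.15). Pcx, pyruvate carboxylase, which refills the cycle, was among those that rose, with 480, 704 and 384 reads against 81.3, 134 and 138 in control and 107 to 179 in LPS (2.13 ± 0.27). The other genes that rose were Dld, Pdhb, Mdh2 and Ogdh, by 1.23, 1.02, 0.46 and 0.41. Without any 1 of 4 libraries (control replicates 1 and 2, combined-treatment replicates 1 and 3) the number that rose was 3. Falls numbered 18 under library-total scaling and 16 under quantile normalization. They numbered 9 without any one of control replicates 2 and 3 and combined-treatment replicates 1 and 3. Of 32 respiratory chain genes 5 fell and 2 rose (median -0.23), both smaller shares than over all genes. The number that fell was 28 under library-total scaling, 9 without combined-treatment replicate 2, and 1 without any one of control replicates 2 and 3 and combined-treatment replicates 1 and 3.

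Cholesterol synthesis genes went against the direction of LPS. Of 25 tested, 19 fell and 3 rose (median -1.15), whereas against the same controls LPS alone gave 18 higher and 1 lower (median 1.18). Directly against LPS alone 20 were lower and 1 higher.
Cyp51, the lanosterol demethylase, held 122, 98.8 and 137 reads against 712, 528 and 550 in control and 1766, 1455 and 1869 in LPS (-2.31 ± 0.20, limma adjusted p = 8.19e-06). Msmo1, which acts at a later demethylation, held 190, 197 and 210 against 787, 823 and 919 in control (-2.08 ± 0.15). Dhcr7, which makes the last reduction to cholesterol, was lower than control in both states, at 75.4, 84.3 and 104 reads and 161 to 241 in LPS against 650, 723 and 857. For these 3 genes no combined-treatment library reached the range of either other group.
Among the members that rose were Insig1 (2.93 ± 0.19) and Mvd (1.09 ± 0.17). Insig1, which retains the sterol sensor SCAP and is itself induced by sterol regulators, held 6916, 5094 and 8499 reads against 924, 818 and 889 in control and 2520 to 3003 in LPS. The genes of efflux and LXR control fell in 7 of 17 cases and rose in 3, Fabp4 (1.68), Mylip (1.54) and Nr1h3 (1.40). Abcg1, which exports cholesterol, held 503, 512 and 474 reads against 2595, 3049 and 3243 in control (-2.57 ± 0.15) and 2284 to 3454 in LPS. Scd2, a fatty acid desaturase, held 65.2, 78.0 and 90.9 reads against 1428, 878 and 1005 in control and 1017 to 1313 in LPS. Cyp51 exons overlap those of Akap9.

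**Figure D3:**
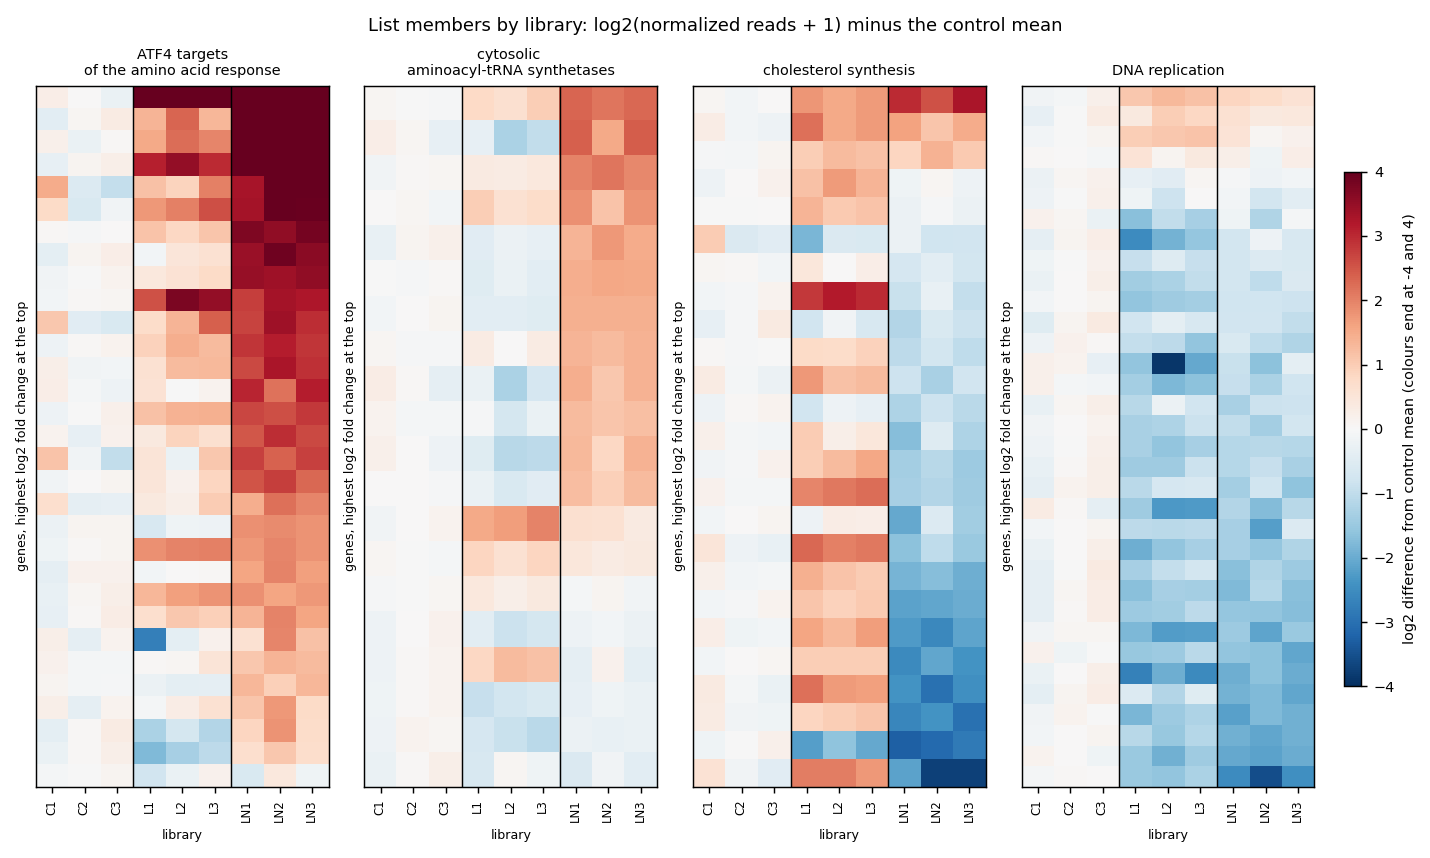
Log2(normalized reads + 1) minus the control mean for each tested member of 4 gene lists (rows, ordered by log2 fold change against control) in the 9 libraries (columns; C control, L LPS, LN LPS with NCT503), with colours ending at -4 and 4. ATF4 targets and tRNA synthetases were red mainly in the combined treatment, cholesterol synthesis genes turned from red with LPS to blue with both agents, and DNA replication genes were blue in both.

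Proliferation genes were lower in both treated states. In the combined treatment 25 of 32 cell cycle genes fell and 3 rose (median -1.62, beside -1.12 for LPS alone). Of 34 DNA replication genes 26 fell and 1 rose (median -1.08, beside -1.24). Mcm6, a subunit of the replicative helicase, held 202, 179 and 201 reads against 703, 774 and 824 in control and 269 to 357 in LPS (-1.98 ± 0.16). Rrm2, the regulated subunit of ribonucleotide reductase, fell by 2.84, to 35.7, 16.6 and 36.8 reads from 197, 216 and 208. Ccnd1, the cyclin that M-CSF is known to induce, held 101, 101 and 131 reads against 875, 1398 and 1506 in control (-3.47 ± 0.23), and Plk1, a mitotic kinase, held 37.7, 43.7 and 45.5 against 236, 295 and 294. The genes that rose were Ccne1 (3.18), Ccnd2 (2.60) and Mki67 (1.87), and in DNA replication Pola2 (0.73). Ccne1, the cyclin of S-phase entry, held 954, 548 and 1002 reads against 73.1, 88.2 and 107 in control.

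Ribosome biogenesis genes rose in 12 of 25 cases and fell in 2, Polr1b (-0.75) and Ubtf (-0.49); under library-total scaling 4 rose and 6 fell and the median of 0.45 turned to -0.00152. The pair that fell was no longer called without any one library other than combined-treatment replicate 2, without which 5 fell. Myc, which drives the programme, held 993, 1130 and 968 reads against 274, 186 and 248 in control (2.14 ± 0.18), and Gnl3, nucleostemin, rose by 1.77 ± 0.18 with LPS alone at -1.10 ± 0.24. Lysosome and autophagy genes rose in 15 of 39 cases and fell in 4 (among them Tfeb, Ctsd and Asah1), but 16 fell under library-total scaling and 15 under quantile normalization, and the median of 0.34 lost its sign under both; 1 fell without any one of control replicates 2 and 3 and combined-treatment replicates 1 and 3. Rragd, a Rag GTPase that signals amino acids to mTORC1, held 4427, 4049 and 4301 reads against 793, 1003 and 891 in control and 88.7, 112 and 78.7 in LPS. It rose by 2.25 ± 0.15 where LPS alone fell by 3.26. Atp6v1h, a subunit of the lysosomal proton pump, rose by 1.61 ± 0.15.
Clock genes rose in 9 of 18 cases and fell in 4 (median 0.56, beside -0.38 for LPS alone). Ciart, a repressor of the clock, held 429, 427 and 551 reads against 30.1, 37.8 and 38.5 in control (3.69 ± 0.21) and 53.2 to 65.6 in LPS. Cry1 rose by 3.22 ± 0.16, Bhlhe40 by 2.95 ± 0.15 and Bhlhe41 by 2.49 ± 0.15, all repressors, while the output factors Dbp and Tef (-2.06 and -1.45) and the repressors Per2 and Per3 (-1.55 and -1.47) fell. Against LPS alone 12 clock genes were higher and none lower.
Methylation enzymes rose in 7 of 30 cases, a share near that over all genes, and fell in 10 (14 under library-total scaling and 13 under quantile normalization). Kdm6b, the H3K27 demethylase that LPS induces, rose by 3.14 ± 0.18, and the H3K9 methyltransferases Setdb1 and Ehmt1 fell by 1.80 and 1.29. Genes of the p53 and apoptosis list rose in 14 of 26 cases and fell in 5, Sesn1, Casp9, Zmat3, Bad and Ccng1; 11 fell under library-total scaling, beside 10 that rose, and 8 under quantile normalization, beside 13. Plk2, a polo-like kinase of stress, held 36965, 20237 and 31426 reads against 1994, 2242 and 1953 in control (3.80 ± 0.21) and 4181 to 5116 in LPS. Gadd45b, which feeds into MAP kinases, and the death receptor Fas rose by 3.49 ± 0.18 and 3.11 ± 0.20, with direct differences from LPS alone of -0.05 ± 0.19 and -0.12 ± 0.18.

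Macrophage identity genes were lower in the combined treatment in 18 of 29 cases and higher in 2, Fcgr2b (1.05) and Cd33 (1.00), with a median of -0.60 beside 0.33 for LPS alone. Without control replicate 2 the number lower was 11, and it was 24 under library-total scaling and 26 under quantile normalization. Maf, a transcription factor that keeps macrophages from dividing, held 2676, 2792 and 2443 reads against 27113, 25047 and 24086 in control and 18587 to 20843 in LPS (-3.27 ± 0.14). The chemokine receptors Ccr2 and Cx3cr1 fell (-4.28 and -3.99), to at most 33.6 and 37.9 reads. In control replicate 1 these 2 receptors were highest, at 782 and 807 reads against 343 to 461 in the other controls. Csf1r (0.09), Adgre1 (0.15) and Cd68 (0.33) were among the 9 members not called.
Of 16 alternative activation genes 5 rose and 5 fell. Tgm2, transglutaminase 2, held 29878, 28349 and 27788 reads against 1884, 2155 and 2422 in control (3.74 ± 0.15), and Klf4, a factor of that state, rose by 3.03 ± 0.17. The other genes that rose were Ccl22, Vegfa and Il10, and those that fell were Mgl2 (-3.46), Chil3 (-2.65), Clec10a (-2.32), Pparg (-1.18) and Trem2 (-1.01). Chil3, a secreted chitinase-like protein, held 178, 162 and 181 reads against 849 to 1387 in control and 765 to 1302 in LPS.

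Among markers of other bone marrow cells, those of neutrophils and of mast cells, basophils and eosinophils showed some of the largest falls. In bulk RNA, fewer cells of a type and less RNA per cell cannot be told apart. Of 10 neutrophil markers tested, 8 fell and none rose (median -3.20, beside -0.17 for LPS alone), and the summed markers held 488 to 1220 reads in the combined treatment against 4930 to 8390 in control and 2970 to 6670 in LPS. Camp (-0.72) and Mmp8 (-0.20) did not pass, and Cxcr2, a defining receptor, was at 0 in all 3 combined-treatment libraries. S100a9, a calprotectin subunit, held 46.9, 71.8 and 22.7 reads against 1439, 803 and 1050 in control (-4.61 ± 0.38), and Mpo, myeloperoxidase, held 25.5, 97.8 and 17.3 against 2149, 1245 and 1340 (-5.40 ± 0.60). Elane, neutrophil elastase, fell (-5.29), as did Ctsg and Prtn3 (-4.48 and -4.83), other proteases of the same granules. Of 10 mast cell, basophil and eosinophil markers 9 fell, with summed levels of 365 to 389 against 1130 to 1360 in control and 1460 to 2150 in LPS; Kit (0.07) did not pass.
Prg2, the eosinophil major basic protein, had the largest fall of the named genes, to 3.06, 2.08 and 6.49 reads from 253, 298 and 345 (-6.03 ± 0.36, limma adjusted p = 6.56e-07), while LPS held 355 to 607. Epx, eosinophil peroxidase, had 84 reads over the control libraries and 0 with both agents, at least 19.4-fold lower with a floor of 3 reads per group. Mcpt8, a basophil protease, held 32.6, 61.4 and 44.4 reads against 234, 370 and 329. Of T and natural killer cell markers 3 of 12 fell (Cd3e, Cd8b1 and Gzma, all under 40 reads in any library; 1 to 6 fell when single libraries were left out), of 4 B cell markers 3 fell (Cd79a, Cd79b and Ighm) and Pax5 rose, and of 4 erythroid markers none was called (none had an unadjusted p under 0.05, and edgeR and DESeq2 called none). Dendritic markers rose in 3 of 8 cases (Xcr1, Zbtb46 and Ccr7) and Batf3 fell. Stromal markers rose in 4 of 12 (Dcn, Lum, Acta2 and Postn), in 10 without control replicate 1, and in 2 or 3 without any other single library; Thy1 fell. The summed stromal markers held 31500 reads in control replicate 1 and 6740 to 10800 in the other controls, against 19900 to 41600 in LPS and 21400 to 53900 with both agents, the highest in replicate 2. Their part in other results, including Inhba, was not tested.

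Some genes had the value of untreated or LPS cells, or neither, and the following were chosen on those values, so they are descriptions without a test. Near the LPS level were Tnf, Acod1, Cxcl3, Mir155hg, Hcar2 and Lta among genes that rose, and Sesn1, Bmf, Tpcn1, Epb41l1 and Lpar6 among those that fell. Hcar2, the receptor of niacin and ketone bodies, held 4418, 2145 and 3957 reads against 23.9, 28.0 and 30.4 in control and 4024 to 5268 in LPS. Sesn1, an inhibitor of mTORC1, held 75.4, 52.0 and 54.1 reads against 2666, 2753 and 2677 in control and 53.2 to 74.9 in LPS. Bmf, a death gene of the BCL2 family, held 21.4, 26 and 41.1 against 422, 434 and 491.
Near the untreated level, though moved by LPS alone, were Trem1, Sema4c, Ier2, Ifit1bl1, Smpdl3b and Gzmc, which LPS raised, and Cd28, Nav2, Cd300a, Tns1, Pdxk and Daglb, which LPS lowered. Trem1, a receptor that amplifies inflammation, held 9.17, 10.4 and 6.49 reads against 6.83, 4.90 and 8.01 in control and 351, 207 and 383 in LPS. Sema4c, a membrane semaphorin, held 96.8, 83.2 and 66.0 against 101, 93.1 and 107 in control and 2658 to 3729 in LPS. Cd28, a costimulatory receptor, held 1096, 1007 and 1057 against 1287, 965 and 720 in control and 47.2, 30 and 26.2 in LPS. Under library-total scaling Cd300a, Daglb, Gzmc, Sema4c and Tns1 passed the test as lower than control (-0.55 to -0.87).

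Unlike LPS alone, by the same kind of rule, were Ccdc155, Mt2, Acer2, Zbtb10, Col19a1, Trib3 and Lrp8 above control and S100a9, Ctsg, Txnip, Igkc, Scd2, S100a8, Maf and Ngp below it. Ccdc155 held 498, 576 and 516 reads against 5.47, 2.80 and 3.21 in control and 0, 9.55 and 3.93 in LPS. Txnip, the glucose-regulated inhibitor of thioredoxin and glucose uptake, held 187, 232 and 197 reads against 4343, 4216 and 4283 in control and 2980 to 3583 in LPS (-4.38 ± 0.15). Its exons overlap those of Gm15441. Acer2, an alkaline ceramidase, held 448, 204 and 344 against 6.83, 11.2 and 18.4, and Lrp8, a lipoprotein receptor, 1986, 1609 and 1864 against 157, 147 and 155.
A last group lay on the far side of control from LPS. Above control where LPS was below it were Plcxd2, Tox2, Abca5, Il7r, Chaf1b and Arfgef3, and below it where LPS was above were Cyp51, Kcnn4, Sertad3, Dpysl2, Msmo1 and Pik3cd. Plcxd2 held 1663, 1173 and 1612 reads against 71.7, 64.4 and 52.1 in control and 36.9, 20.5 and 27.5 in LPS. Il7r, the interleukin-7 receptor, held 8191, 5795 and 7602 against 1007, 1138 and 952 in control and 329 to 553 in LPS. Pik3cd, a leukocyte PI3-kinase subunit, held 824, 663 and 667 against 2604, 2709 and 2623 in control and 9302 to 12055 in LPS. In all 12 the combined-treatment libraries lay outside the ranges of both other groups.

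**Figure D4:**
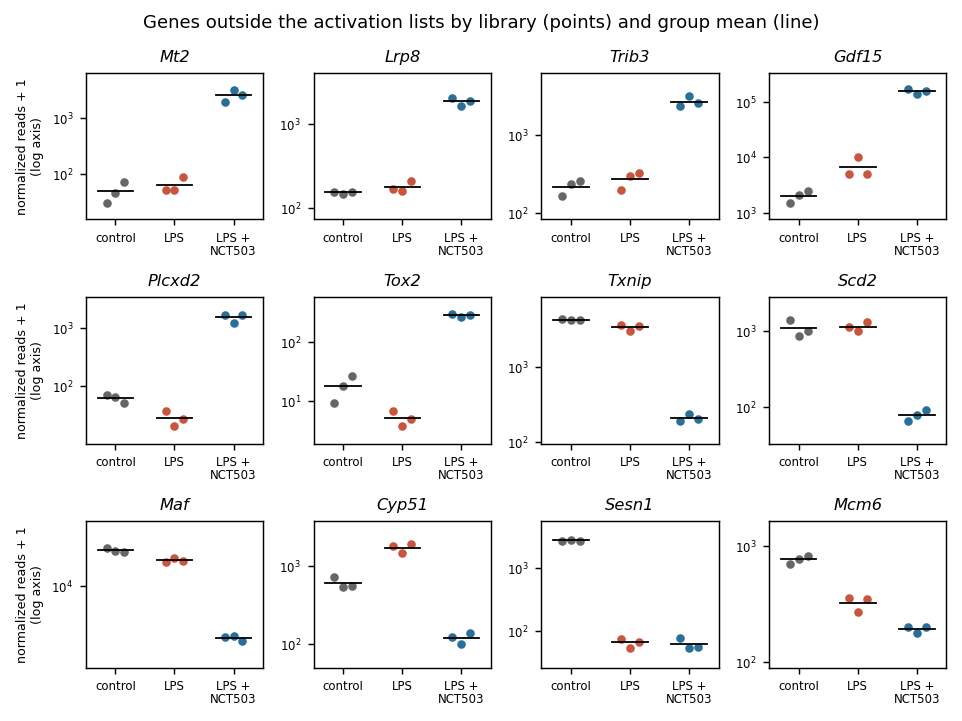
Normalized reads plus 1 (log axis) of 12 genes in the 3 groups; points are libraries and lines group means. Mt2, Lrp8, Trib3 and Gdf15 were highest with both agents, Plcxd2 and Tox2 lay above control where LPS lay below, Txnip, Scd2, Maf and Cyp51 were lowest with both agents, and Sesn1 was as low as with LPS alone.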

How the data were processed

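RNA-seq of 9 libraries, 3 per group, was used, with 20295862 to 23599685 reads per library. Per the submitters' processing notes, TopHat2 and the build mm10 were used; no source used here gives the read counter, annotation or strand setting. The authors deposited 2 tables whose signal values per library are reads divided by a size factor. The log2 fold changes and p-values deposited by the authors were not used. Each column divided by its smallest positive value gave whole reads (tolerance 0.001) in 100% of values, and the LPS reads were identical in both tables. The tables, of 22620 and 23001 genes, were joined on gene ID (21434 genes), because each pairs LPS with 1 other group, and the 9 libraries were scaled together by median of ratios.

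Genes averaging 1 or more normalized reads in a group were tested with limma 3.58.1 (trend and robust) in R 4.3.3 on log2(normalized reads + 1), which understates changes of low genes, with Benjamini-Hochberg adjustment and a threshold of 0.05. The method was run on simulated counts that had a common dispersion for all genes and few changed genes, unlike these data. Its error rate on these data was not tested. Alternatives were edgeR 4.0.16 and DESeq2 1.42.0 on the recovered reads, other scalings, filters and pseudocounts, a replicate block and leaving out each library. Counting intervals are exact, at 95%, and cover counting error only.

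Named genes were those with the largest changes without overlap of libraries, those unlike LPS alone, near control, near LPS or opposite to LPS, a list of fixed genes, and up to 4 members with the smallest p of each list; those named outside this rule are exceptions in a list or members of its role. The members and lists were chosen with earlier results of these data known. Exons of 61 of 204 named genes overlap another gene's, and reads of opposite-strand overlaps cannot be told apart without strand. Strand would not separate overlaps on the same strand, among them those of Aars (Exosc6), Tapbp (Zbtb22), Ehmt1 (Gm37139) and Gnl3 (Snord19). Some genes and a sequence that the rule names are not reported here.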

Additional observations from a re-analysis of the deposited data

How the results depend on the processing

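The scaling had the largest effect on the split of calls. Under library totals (CPM), LPS with NCT503 against control gave 2452 genes higher and 6574 lower, and LPS against control 2090 and 8426. With a change of at least 2-fold required, the lower calls fell to 2562 for the combined treatment against control and 1887 against LPS, and the higher calls for LPS against control to 2689; fewer genes can pass by construction. Without 1 library, the combined treatment against control gave 3089 to 4612 higher and 2719 to 4529 lower, LPS against control 3344 to 4117 and 3167 to 4408, and the combined treatment against LPS 2197 to 3654 and 2144 to 3594. Deviations from the group mean did not pair the samples by replicate number throughout, as not every library correlated best with its own number. These deviations also correlated with gene length (-0.372 to 0.364), and a shared origin of replicates was not tested. Same-numbered correlations were 0.0451, -0.152 and -0.227 between the combined treatment and control. They were 0.19, 0.0976 and -0.0318 between LPS and control, and 0.369, 0.318 and -0.0952 between the combined treatment and LPS. LPS replicate 1 did correlate best with control replicate 1. In the last comparison, combined-treatment replicates 1 and 2 did so with their own number. In that order of comparisons, a replicate block gave 4128 higher and 3970 lower, 4719 and 4890, and 4182 and 3944. Without the block the counts were 4134 and 3927, 4076 and 4231, and 3276 and 3097. List medians for the combined treatment against control changed sign for class I antigen presentation (-0.0541 with CPM, -0.00382 with quantile normalization), serine and one-carbon genes (-0.0118 with TMM, -0.382 with CPM, -0.168 with quantile normalization; -0.00339 to 0.141 without 1 library), metallothioneins and zinc transporters (-0.112 with CPM), ribosome biogenesis (-0.00152 with CPM), lysosome (-0.116 with CPM, -0.00336 with quantile normalization), alternative activation (-0.0596 with TMM, -0.423 with CPM, -0.389 with quantile normalization, -0.0702 without control replicate 3), the endoplasmic reticulum (0.0148 and 0.0536 without combined-treatment replicates 2 and 3), and the markers of dendritic cells (-0.476 with no filter, -0.809 without control replicate 3) and erythroid cells (0.0901 without combined-treatment replicate 1). The cause was not tested. Of the 204 named genes, none called against control changed direction under any alternative run, while Alas2, Arg1, Cd28, Ier2, Ifit1bl1, Nav2, Pdxk, Psph, Smpdl3b and Trem1, which were not called, changed sign under at least 1. Calls of Acta2, Gzma, Cd3e, Cd8b1, Atp5a1 and Ndufs7 were lost without single libraries, and those of Acta2, Uqcrq and Tapbp under some scalings. Respiratory chain genes that fell numbered 17 with quantile normalization. At this depth, genes of a few reads have wide counting intervals.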

Other observations

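Genes present in 1 of the 2 tables entered no comparison. Of 1186 found only beside LPS with NCT503, 47 had at least 10 reads in that group, with at most 40 in a library, and of 1567 found only beside control, 58 had at least 10 reads there, with at most 27. Single libraries held unusual levels of a few genes, named after their values were seen. Itgax, an integrin of dendritic cells and macrophages, held 561, 9371 and 548 normalized reads in the combined treatment, and Ctsl, a lysosomal protease, 15948, 50432 and 15371, both highest in replicate 2. Their cause was not tested. Pax5, a B cell factor, had 33 reads over the combined-treatment libraries and 0 over control, at least 15.9-fold higher with the floor of 3 reads per group.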
